A study of Homo sapiens with 4 samples.

Results

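The regions described here are the stretches of open chromatin that the authors' ATAC-seq table files as specific to the control hairpin and annotates to an intron. They were chosen by the row identifier (the shNC-specific set) and by an annotation that begins with intron. There were 8967 of them among 58127 regions in all (15.4%), which is 41.8% of the 21459 shNC-specific regions and 38.8% of the 23117 intronic regions. For comparison, 12868 intronic regions belong to the common set and 1282 to the shG8d-specific set. The cells were MCF10A, a non-tumorigenic human mammary epithelial line of basal character. Libraries A and B with a hairpin that knocks down SNHG8d (shG8d) were set against libraries A and B with a control hairpin (shNC). SNHG8d is named by the labels as the target and SNHG8 by the study's design, and no label says how the hairpins were delivered, whether a group is 1 clone, or whether A and B were separate cultures.

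ATAC-seq reads DNA that a transposase can reach, so an open region marks a promoter, an enhancer or another site where nucleosomes are displaced. Introns hold many of the enhancers of a human gene, often far from its transcription start site (TSS), and a region in an intron of 1 gene can serve another gene nearby. SNHG8 is a host gene whose introns carry a small nucleolar RNA. The study's title links SNHG8d to histone H1, the linker histone that sits at the entry and exit of nucleosomal DNA and favours compact chromatin.

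The group labels of the table change places between its parts. What 1 read is worth in each column shows that the columns labelled shG8d in the specific sets (1.21 and 1.17 normalized counts per read) are the libraries labelled shNC in the common set. The columns labelled shNC in the specific sets are worth 0.842 and 0.807 per read. Libraries are therefore named here throughout by their label in the specific rows, also where common regions are discussed. Every difference is shG8d-labelled minus shNC-labelled on the log2(normalized count + 1) scale, and nothing is said of the knockdown's own direction, since the specific and the common rows cannot be told apart as to whose labels are right. The shG8d-labelled libraries held 4457248 and 4344212 reads in regions, against 8124488 and 8111839 in the shNC-labelled libraries. Depth thus goes with the label, and its part in the differences was not tested. As a check of the cell type, 8 of 9 basal epithelial marker genes had a promoter region, at mean levels of 57.7 to 219 normalized counts, while 0 of 4 immune and 0 of 3 endothelial markers had one. TP63 was the basal marker with none, though 11 regions lay nearest to it. The neuronal marker SYT1 had a promoter region at 67.9, and the other two neuronal markers had none. Levels are per region and not per base, since region widths were not used.

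Starts and ends of the regions were not used, so their own bases are not printed. The 2 promoters below are shown because they belong to genes with 8 of the regions each, have an open region of their own within 250 bases of a TSS, and differ in their motifs. They are RefSeq windows of GRCh38.p14, from 250 bases before to 50 after the TSS, matched by symbol. Capitals mark AP-1 sites (TGANTCA) and GC boxes (GGGCGG), searched on both strands, where overlapping GC boxes run together.

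LAMA3, chr18:23872770-23873069, plus strand: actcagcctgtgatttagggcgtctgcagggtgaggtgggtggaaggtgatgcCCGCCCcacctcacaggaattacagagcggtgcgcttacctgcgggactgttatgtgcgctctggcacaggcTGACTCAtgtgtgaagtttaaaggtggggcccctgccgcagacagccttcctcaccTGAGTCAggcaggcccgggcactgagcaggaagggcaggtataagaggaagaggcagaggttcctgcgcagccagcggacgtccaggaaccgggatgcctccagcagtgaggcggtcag
FHOD3, chr18:36297463-36297762, plus strand: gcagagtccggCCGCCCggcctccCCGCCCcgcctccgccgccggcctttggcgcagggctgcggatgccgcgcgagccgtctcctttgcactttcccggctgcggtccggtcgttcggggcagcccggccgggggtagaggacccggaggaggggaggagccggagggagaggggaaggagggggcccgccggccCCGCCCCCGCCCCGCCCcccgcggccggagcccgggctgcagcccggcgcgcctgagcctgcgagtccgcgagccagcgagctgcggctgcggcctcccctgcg

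The LAMA3 window holds 2 AP-1 sites and 1 GC box, and the FHOD3 window 0 AP-1 sites and 5 GC boxes. Among 35116 RefSeq promoters of the same length, 7.71% hold an AP-1 site and 45.0% a GC box. A match describes the letters and says nothing of which factor is bound.

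The levels of the intronic regions were low in all 4 libraries. Their median was 32.6 and 32.8 normalized counts in the shG8d-labelled libraries A and B, against 37.0 and 36.3 in the shNC-labelled libraries. These medians stand on 27 and 28 reads, against 44 and 45 reads. In the common intronic regions the medians were 77.3 and 78.5, against 69.9 and 70.2 normalized counts. The lowest count of reads was 3 and 2 in the shG8d-labelled libraries, against 14 and 14 in the shNC-labelled libraries. A shG8d-labelled library held fewer than 14 reads in 917 regions (10.2%), which no shNC-labelled library did, and fewer than 20 reads in 3164 (35.3%), against 131 (1.46%) for the shNC-labelled libraries. These are counts of reads in libraries of unequal depth. How the authors called a region specific is not given in the sources used here.

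**Figure D1:**
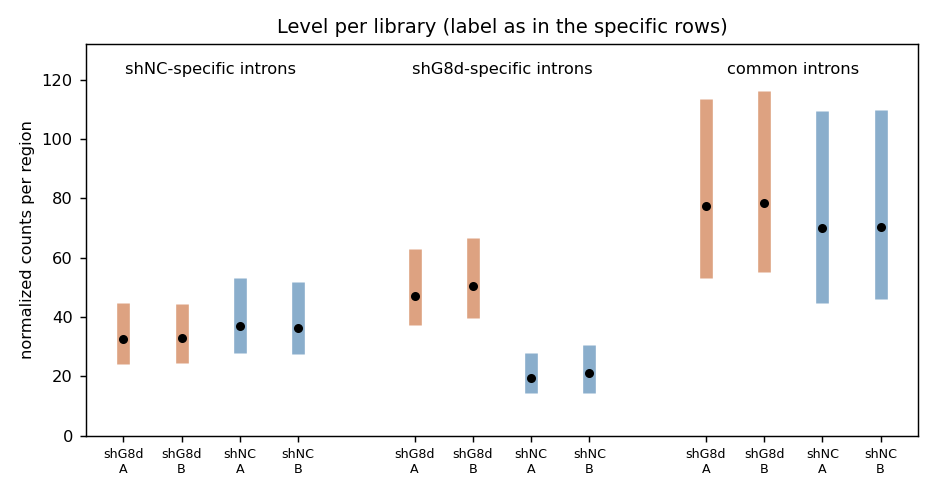
Normalized counts per region in each library, shG8d-labelled libraries left of shNC-labelled ones, for the 8967 shNC-specific introns, the 1282 shG8d-specific introns and the 12868 common introns. Bars run from the lower to the upper quartile and dots are medians. The shNC-specific introns have medians of 32.6 and 32.8 against 37.0 and 36.3, while in the shG8d-specific introns the bars of the labels do not overlap.

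The median log2 difference was −0.20, with quartiles of −0.57 and 0.16, and 63.9% of the regions lay below 0. The extremes were −3.05 and 1.64. Because the set was named from these libraries, the counts that follow are descriptions. With limma and an adjusted p threshold of 0.05 over all 58127 regions, 932 (10.4%) of the intronic regions were called lower in the shG8d-labelled libraries and 77 (0.859%) higher. Over all regions 11.1% were called lower, 12.4% higher and 23.6% either way. At least a 2-fold difference was reached by 7.78% on the lower side and 0.558% on the higher side. The counts moved with the library left out. They were 1539 lower and 294 higher without shG8d-labelled A, 1072 and 138 without shG8d-labelled B, 194 and 12 without shNC-labelled A, and 258 and 24 without shNC-labelled B. With equal library totals in place of the authors' scaling, 370 were called lower and 607 higher, and the median of all regions moved to 0.36 from 0.02 while that of the intronic regions moved to 0.15. Those totals include regions of extreme level. The highest held 119656 and 82532 normalized counts in the shG8d-labelled libraries, against 313987 and 271537 in the shNC-labelled libraries. The 99th percentiles over all regions were 295 and 300, against 324 and 321. The part of such regions in this shift was not tested. Relative to the median of all regions the intronic regions lay at −0.21 with the authors' scaling and −0.22 with equal totals. This likeness is built in, because a scaling by 1 constant per library moves all regions by nearly the same amount.

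Both shG8d-labelled libraries lay below both shNC-labelled libraries in 36.7% of the regions, where the share over all regions was 30.5%. They lay above in 14.8%, where the share over all regions was 32.9%. In the remaining 48.6% the libraries of the labels overlapped. Single pairs of libraries gave nearly the same shift, with medians of −0.20 and −0.18 for shG8d-labelled A and −0.21 and −0.19 for shG8d-labelled B. These pairs share libraries, and the set was named from the same libraries, so their likeness is no independent check. In the authors' deposited table, 1050 of the regions had an unadjusted p under 0.05, 938 lower and 112 higher, and 979 of these were called here too.

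The intergenic regions of the same set had nearly the same median, −0.19, with 835 of 8342 called lower. The promoters of the set had −0.49 and 29.8%. In the common introns the median was 0.17, with 8.44% called lower and 16.1% higher. The shG8d-specific introns had a median of 1.21, with 70.4% called higher, and 95.6% had both shG8d-labelled libraries above both shNC-labelled ones.

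**Figure D2:**
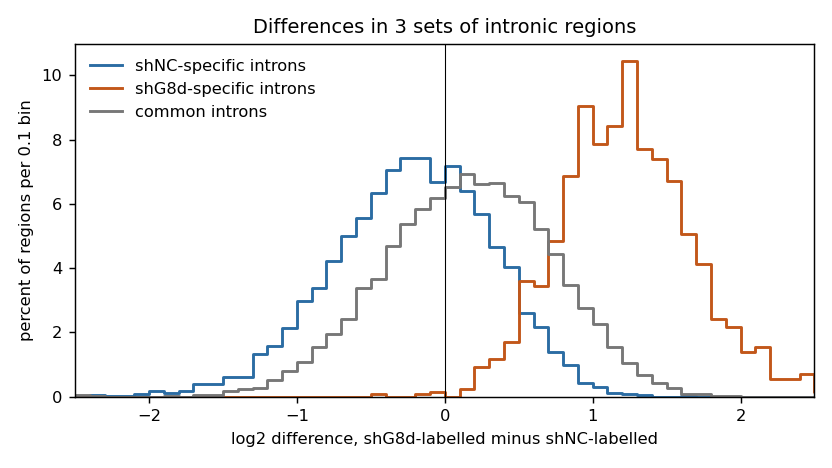
Distribution of the log2 difference, shG8d-labelled minus shNC-labelled, in bins of 0.1, as the percent of each set. The shNC-specific introns (median −0.20) overlap the common introns (0.17) over most of their range, while the shG8d-specific introns (1.21) stand apart; a few regions lie outside the axis.

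Libraries A and B of a label lay further apart in these regions under the shG8d label than under the shNC label, as a description with no test. The median absolute log2 ratio of library A to B was 0.41 for the shG8d-labelled pair, against 0.26 for the shNC-labelled pair. A and B were at least 2-fold apart in 955 regions (10.7%), against 140 (1.56%). Across regions, Pearson's r of A with B was 0.55, against 0.82, a description over regions that share libraries and depth. In the shG8d-specific introns the order was reversed, with median absolute ratios of 0.26 for the shG8d-labelled pair, against 0.49. There 0.624% of regions were at least 2-fold apart, against 13.1%. In both specific sets the wider pair was the one with the lower median level. In the common introns, which are read more deeply, the median absolute ratios were 0.25 and 0.21 and r was 0.88 and 0.94. The chi-square of A against B per region was 2.62 for the shG8d-labelled pair, against 1.82 for the shNC-labelled pair, so both pairs differed by more than read sampling.

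By position, intron 1 held 3355 of them (37.4%), intron 2 held 1616 (18.0%), introns 3 to 5 held 1872, introns 6 to 10 held 1062 and later introns 1062. Intron 1 held 38.9% of the common introns and 46.0% of the shG8d-specific introns. The median distance to the nearest TSS was 20472 bp, against 20959 bp for the shG8d-specific and 24590 bp for the common intronic regions. Within 1 kb of a TSS lay 424 regions (4.73%), against 14.8% of the shG8d-specific and 6.75% of the common introns. The median difference was −0.17 in intron 1 and between −0.24 and −0.19 in the later groups of introns. By distance it ran from −0.26 at 1 to 5 kb, where 15.2% were called lower, to −0.14 at 50 to 100 kb, where 7.58% were. The median did not change steadily with distance, since it was −0.15 within 1 kb (12.5% called lower) and −0.20 beyond 100 kb (8.31%). Later introns within 5 kb of a TSS had the lowest median of the 4 combinations of intron and distance, −0.31. Of these, 105 of 621 (16.9%) were called lower and 2 higher. The same combination was the lowest among the common introns too, at 0.08 with 12.9% called lower. The shNC-specific intergenic regions had −0.27 with 13.4% called lower at 1 to 5 kb, and −0.13 with 8.56% beyond 100 kb. Levels differed by distance too. The median of the pair means within 1 kb was 43.7 normalized counts for shG8d-labelled and 50.2 for shNC-labelled libraries, and beyond 100 kb it was 28.9 and 32.1.

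**Figure D3:**
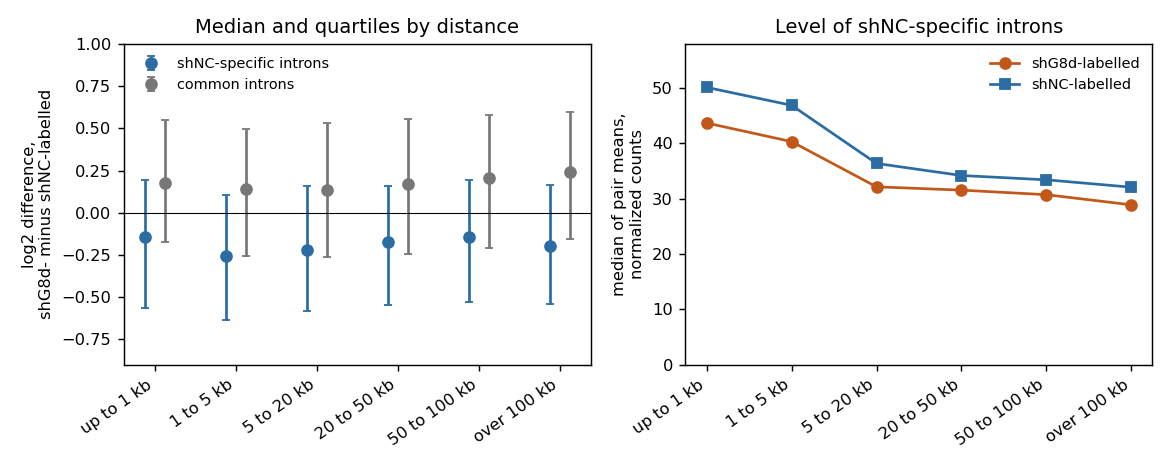
Left, median and quartiles of the log2 difference, shG8d-labelled minus shNC-labelled, by distance to the nearest TSS for the shNC-specific and the common introns. Right, median of the pair means in normalized counts for the shNC-specific introns, which fall with distance in both labels. In every distance group the shNC-specific introns have a median below 0 and the common introns one above 0.

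Called regions, described without a test, more often lay within 5 kb of a TSS than the others. Of the 77 called higher, 45 (58.4%) lay in intron 1 and 26 (33.8%) within 5 kb of a TSS. Of the 932 called lower, 38.2% lay in intron 1 and 29.3% within 5 kb. Of the 7958 not called, 37.1% lay in intron 1 and 19.8% within 5 kb. Lower calls were more frequent among regions of high level. Of 129 regions with a mean over 100 normalized counts, 48.8% were called lower, with a median difference of −0.59. Of 1264 regions under 25, 3.96% were, with a median of −0.14. The common introns shared this order. Of 3992 common introns over 100, 17.6% were called lower, with a median of −0.00054. Of 660 common introns at 25 to 35, 0% were, with a median of 0.48.

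The regions lay nearest to 5753 gene symbols, of which 3826 had 1 region, 1927 had at least 2 and 140 had at least 5. Protein-coding genes accounted for 75.8% of the regions. The intron a region lies in need not belong to the nearest gene. Of 8800 regions whose host and nearest transcript both matched a RefSeq gene, 6003 (68.2%) lay in an intron of the nearest gene and 2797 in an intron of another. The difference varied by chromosome, with medians from −0.37 on chromosome 19, −0.30 on 17 and −0.28 on 22 to −0.04 on 9 and −0.09 on X and on 5. Across 23 chromosomes these medians went with those of the common intergenic regions at Pearson's r of 0.72 with those of the common introns at 0.57, with those of the shNC-specific intergenic regions at 0.50 and with those of the shG8d-specific introns at 0.34, as a description over the same 4 libraries. Chromosome copy number was not measured here.

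Genes with such a region often had others. Common regions lay nearest to 4483 of the genes, common introns to 3193 and a shG8d-specific intron to 564, while 849 had no other region. The common introns of these genes had a median difference of 0.17, as all common introns did. Their common promoters had −0.05, their shNC-specific promoters −0.53 and their shG8d-specific introns 1.22. Within 1 gene, then, intronic regions of both specific sets can stand side by side.

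The 10 regions of highest level, among those with a gene symbol, were mostly lower in the shG8d-labelled libraries. BCAR3, an adaptor linked to antiestrogen resistance in breast cancer cells, had 135 and 117 normalized counts in the shG8d-labelled libraries, against 329 and 347 in the shNC-labelled libraries, in intron 3 of 13 on chromosome 1 (log2 difference −1.42, SE 0.18). SIN3A, the scaffold of a histone deacetylase corepressor, had 114 and 112, against 273 and 249, in intron 1 (−1.20, SE 0.18). MNT, which encodes a MAX partner that opposes MYC, had 109 and 86.7, against 239 and 231, in intron 1 (−1.27, SE 0.19). In these 3 regions the labels did not overlap and A and B lay close together. PMEPA1, which encodes an inhibitor of TGF-beta signalling, had 121 and 86.7, against 223 and 249 (−1.19, SE 0.20). LMNA, the lamin A/C gene, had 114 and 116, against 216 and 207, 237 bp from its TSS (−0.88, SE 0.18). TBC1D2, for a Rab GTPase-activating protein, had 149 and 128, against 321 and 261 (−1.07, SE 0.18). The region nearest FAM83C lies in intron 7 of 8 of UQCC1, an assembly factor of respiratory complex III, and had 140 and 123, against 300 and 256 (−1.07, SE 0.18). PRMT8, an arginine methyltransferase gene, had 129 and 121, against 210 and 210 (−0.74, SE 0.18). FPGS, which encodes the enzyme that adds glutamates to folates, was the exception of the 10, with 198 and 151.1, against 193 and 208, so that the labels overlapped (−0.21, SE 0.19; 0.14 with equal library totals). JAK2, the cytokine receptor kinase, is the last of the 10 and is described with the largest differences. The LMNA call was lost without shNC-labelled A (−0.84), and the PRMT8 call without either shNC-labelled library (−0.74 each) and with equal library totals (−0.39). The other called regions of this group stayed called with each library left out and with equal totals.

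Among the control-specific introns, 1 region of no symbol outweighs all others by far. It lies on chromosome 5 in intron 2 of 3 of PCBD2, at −2472 bp from the nearest TSS. It had 119656 and 82532 normalized counts in the shG8d-labelled libraries, against 281987 and 249284 in the shNC-labelled libraries. Its reads were 26.3% and 20.1% of all reads in the control-specific introns in the shG8d-labelled libraries, against 41.8% and 39.3% in the shNC-labelled libraries. The log2 difference was −1.42 (SE 0.67) and was not called. Without it the median over the regions was still −0.20. It was named after its values were seen. Values of like size occur in other sets. The highest were 104169 and 76812, against 207960 and 187644, in the common introns. In the whole shG8d-specific set they were 114364 and 81743, against 313987 and 271537.

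The largest differences below 0 came with few reads in the shG8d-labelled libraries. TEKT4, a tektin gene, had 19.3 and 9.37 normalized counts, against 140 and 102, with the region in intron 5 of 9 of LOC442028 on chromosome 2 (log2 difference −3.05, SE 0.35). The 2 lower values stand on 16 and 8 reads. SLC2A7, a glucose transporter gene, had 15.7 and 22.3, against 100.1 and 82.3, in an intron of the fructose transporter gene SLC2A5 (−2.22, SE 0.31). Both regions stayed called with each library left out. TP73, a member of the p53 family, had 14.5 and 3.51, against 45.4 and 39.5, in intron 1 (−2.38, SE 0.50). Its call was lost without shNC-labelled A (−2.28) and without shNC-labelled B (−2.47). JAK2 had 93.0 and 30.5, against 390 and 155, in intron 19 of 21 on chromosome 9 (−2.18, SE 0.39). Its labels did not overlap, although A was well above B under both labels. A like gap between A and B was seen in the region nearest SNORA107, a small nucleolar RNA, with 20.5 and 8.20, against 150.6 and 61.3 (−2.79, SE 0.43). LINC01582 had 3.62 and 9.37, against 39.6 and 37.1 (−2.51, SE 0.48), and SLC35E4, a solute carrier, 9.66 and 4.69, against 48.0 and 33.1 (−2.39, SE 0.46). Neither passed the filter on low values once a shNC-labelled library was left out. MIR4428, with its region in intron 35 of 104 of the cardiac calcium channel gene RYR2, had 13.3 and 8.20, against 65.6 and 45.2 (−2.27, SE 0.39). FRMD6-AS2, an antisense RNA gene, had 12.1 and 9.37, against 104 and 32.3 (−2.35, SE 0.46), and EFCAB11, an EF-hand protein gene, 19.3 and 2.34, against 56.4 and 29.1 (−2.33, SE 0.61). The calls of MIR4428, FRMD6-AS2 and EFCAB11 were lost without shNC-labelled A (−2.01, −1.51 and −1.87).

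Above 0 the leading region was in intron 1 of NR4A2, an orphan nuclear receptor induced early by many stimuli. It had 149 and 228 normalized counts in the shG8d-labelled libraries, against 59.8 and 57.3 in the shNC-labelled libraries, 635 bp from the TSS on chromosome 2 (log2 difference 1.64, SE 0.23). ULK4, a kinase-family gene, had 121 and 218, against 67.3 and 72.6, in intron 1 (1.20, SE 0.25). CUL2, the cullin of the VHL ubiquitin ligase, had 108 and 116, against 52.2 and 35.5, in intron 17 of 20 (1.35, SE 0.26). All 3 had both shG8d-labelled libraries above both others. JMJD1C, for a jumonji-domain protein, had 94.2 and 105, against 41.2 and 42.0, in intron 1 of REEP3 (1.24, SE 0.25). GNAQ, the Gq alpha subunit gene, had 32.6 and 43.4, against 16.8 and 12.9 (1.29, SE 0.39), and its region was the lowest of the 10. The others had differences of 1.36 at MLIP-IT1, 1.35 at CCDC149, 1.24 at DLGAP1-AS2, 1.22 at GXYLT2, a xylosyltransferase gene, and 1.21 at SPARC. Of these 10, the calls of NR4A2, ULK4, CUL2, JMJD1C, MLIP-IT1 and CCDC149 stayed with each library left out. The calls of GNAQ and SPARC were lost without shG8d-labelled B (1.09 and 0.87), without shNC-labelled A (1.47 and 1.21) and without shNC-labelled B (1.11 and 1.21). That of DLGAP1-AS2 was lost without shG8d-labelled B (0.74) and without shNC-labelled A (1.06), and that of GXYLT2 without shNC-labelled A (1.18).

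**Figure D4:**
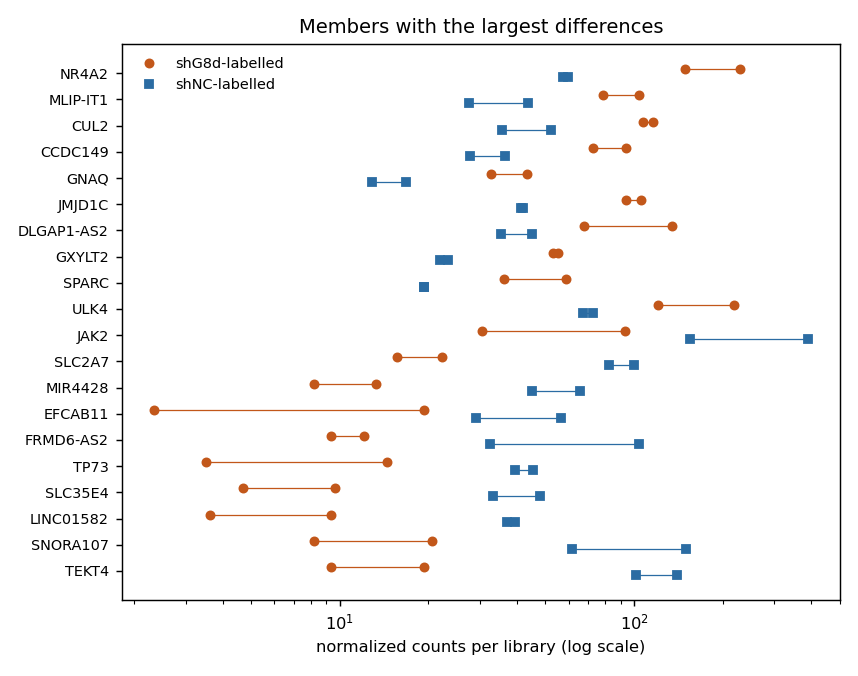
Normalized counts per library, on a log axis, of the 10 called regions with the largest log2 difference above 0 (upper rows, NR4A2 to ULK4) and the 10 with the largest below 0 (lower rows, JAK2 to TEKT4). Circles are shG8d-labelled and squares shNC-labelled libraries, and a line joins A and B; most of the lower rows have under 20 reads in both shG8d-labelled libraries.

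The genes with the most regions had between 8 and 11 of them. PALLD, which encodes the actin cross-linker palladin, had 10 regions with a median log2 difference of 0.15 and a range of −0.27 to 0.57, and 0 of them were called. PARD3, a scaffold of apical-basal polarity, had 9, between −0.71 and 0.21, and 0 called. TBC1D2 had 9, of which 6 lie in introns of the neighbouring GABA receptor gene GABBR2. They ran from −1.07 to 0.81, with 1 called lower and 1 higher. The 8 regions each of FHOD3, a formin, MACF1, which links actin and microtubules, and ARHGAP26-AS1, in introns of ARHGAP26, had medians of 0.06, 0.02 and 0.23, and 0 were called. ABLIM1, ARHGEF3, EPAS1 and MCFD2 had 8 regions and 1 lower call each. ABLIM1 encodes an actin-binding LIM protein, ARHGEF3 a guanine nucleotide exchange factor and EPAS1 the hypoxia factor HIF-2 alpha. Of the EPAS1 regions 4 lie in introns of PRKCE, a protein kinase C gene, and of the MCFD2 regions 7 lie in introns of TTC7A. The ARHGEF3 call was lost without shG8d-labelled B (−0.80), shNC-labelled A (−1.32) or shNC-labelled B (−0.66) and with equal library totals (−0.65). The lower EPAS1 region, in intron 1, had 100.3 and 58.6 normalized counts, against 187 and 142 (−1.08).

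LAMA3 encodes the alpha-3 chain of laminin-332, the matrix protein on which basal mammary cells anchor their hemidesmosomes. It had 8 regions, all in introns of its 73-intron transcript on chromosome 18. Of these, 5 lie in introns 21 to 30, at −48077 to −27823 bp from an internal TSS. The region in intron 23 had 60.4 and 35.1 normalized counts in the shG8d-labelled libraries, against 83.3 and 103 in the shNC-labelled libraries (log2 difference −0.99, SE 0.28). The region in intron 2, 36361 bp from the upstream TSS, had 20.5 and 28.1, against 49.7 and 54.9 (−1.09, SE 0.33). In both the labels did not overlap, and these were the 2 called lower. The intron 23 call was lost without shG8d-labelled B (−0.61) and without shNC-labelled B (−0.84), and the intron 2 call without either shNC-labelled library (−1.16 and −1.02). With equal library totals both calls were lost (−0.65 and −0.74). The other 6 lay between −0.38 and 0.25. Another region of intron 2, at 30459 bp, had 84.6 and 72.6, against 71.5 and 60.5 (0.25), so neighbours in 1 intron stood on opposite sides of 0. The common promoter region at −108 bp from the internal TSS had 165 and 166, against 368 and 311 (−1.02, SE 0.17, called lower). The common promoter region at the upstream TSS had 70.1 and 74.98, against 109 and 88.8 (−0.44, not called), and 2 common introns of LAMA3 were called higher. The LAMA3 window printed above is on another build than the table, so it was not placed against these regions.

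FHOD3 has no called region among its 8, which ran from −0.64 to 0.83. Its promoter region at −94 bp is shNC-specific and had 39.9 and 29.3 normalized counts, against 81.6 and 49.2 (−0.87, called lower). A common region in intron 3, 88827 bp from the TSS, had 71.3 and 48.0, against 117 and 111 (−0.95, called lower), and another, at 156707 bp, had 61.6 and 55.1, against 32.0 and 29.1 (0.91, called higher). SEPTIN9, a septin cytoskeleton gene whose symbol a spreadsheet had turned into a date, was added after its values were seen. It had 11 regions, from −1.16 to 0.32, with 3 called lower. The lowest, in intron 1 and 17186 bp from a TSS, had 59.2 and 58.6, against 141 and 124 (−1.16, SE 0.22). A common promoter region of SEPTIN9 at −961 bp had 199 and 182, against 327 and 356 (−0.84, called lower).

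**Figure D5:**
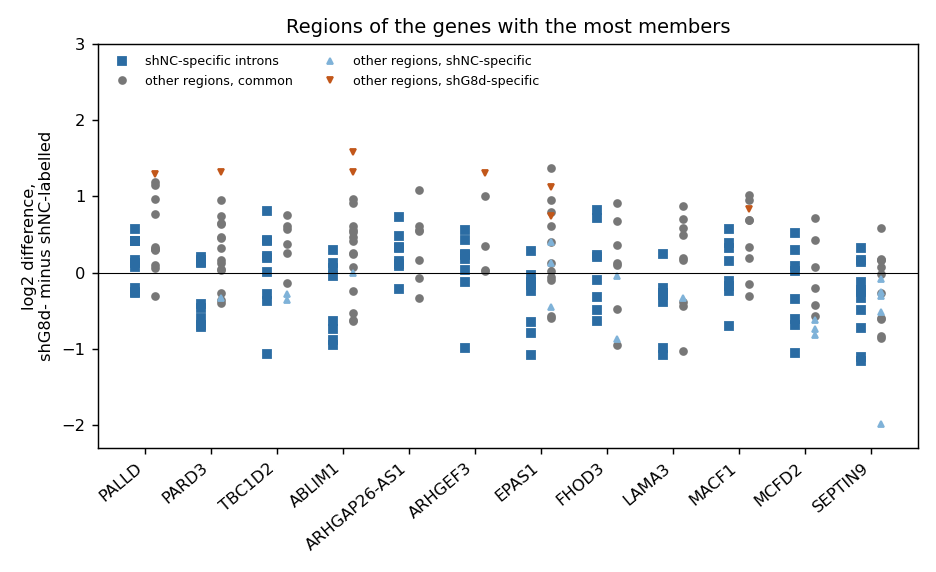
Log2 difference, shG8d-labelled minus shNC-labelled, of each shNC-specific intronic region (squares) of the 12 genes with the most of them, beside the other regions nearest to the same gene, by set. Squares lie on both sides of 0 in every gene, and shG8d-specific regions, where a gene has any, lie above 0.

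Lists of genes that fit the cell type and the title were read as counts, beside the 10.4% called lower and 0.859% called higher over all control-specific introns and the medians of −0.20 over them and 0.02 over all regions. Counts without a library are given in the order shG8d-labelled A, shG8d-labelled B, shNC-labelled A and shNC-labelled B.

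Cell contact genes were a large group. Junction genes had 37 regions at 16 of 29 genes, 5 of them called lower and 0 higher, with a median of −0.13. The lower count was 7, 5, 1 and 1 without a library. TJP1, the tight-junction scaffold ZO-1, had 38.7 and 39.8 normalized counts in intron 2, against 77.4 and 93.6 (log2 difference −1.10, SE 0.26), and a second called region in the same intron (−1.04). JUP, encoding plakoglobin, had 53.2 and 44.5, against 110 and 86.3 (−0.99), and DSP, encoding desmoplakin, 37.5 and 34.0, against 74.1 and 70.2 (−0.995). In none of these 4 regions did the labels overlap. The first TJP1 call was lost without shNC-labelled B (−0.96), JUP without shNC-labelled A (−0.81), and DSP and the second TJP1 region without either (−0.96 and −1.03, −1.15 and −0.94). With equal library totals the calls of JUP (−0.64), DSP (−0.65) and the second TJP1 region (−0.70) were lost too. Hemidesmosome and matrix receptor genes had 32 regions at 10 of 21 genes, 5 called lower and 1 higher, with a median of −0.28. Without a library the lower count was 6, 6, 1 and 0 and the higher count 1, 0, 0 and 0. Beside LAMA3, PLEC, which links hemidesmosomes to keratin, had 62.8 and 52.7, against 111 and 109 (−0.92), and ITGA2, a collagen receptor subunit, 18.1 and 32.8, against 58.9 and 43.6 (−1.02). The other integrin calls were ITGB5, lower (−0.94), and ITGA6, the laminin receptor subunit of hemidesmosomes, higher, with 88.2 and 91.4, against 55.5 and 55.7 (0.68). The PLEC call was lost without either shNC-labelled library (−0.91 and −0.94), and the ITGA2 call without shG8d-labelled A (−0.61) and either shNC-labelled library (−0.81 and −1.24). Both were lost with equal library totals (−0.57 and −0.68).

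Epithelial transcription factors had 13 regions at 8 of 22 genes, 2 called lower and 0 higher, and 4, 1, 1 and 1 lower without a library. RUNX1, a runt factor of mammary epithelium, had 36.2 and 24.6 normalized counts, against 96.8 and 93.6 (log2 difference −1.64, SE 0.28), and this call stayed with each library left out. GRHL2, a grainyhead factor of epithelial junction genes, had 99.1 and 37.5, against 124 and 108 (−0.91), and was not called without shG8d-labelled B (−0.22) or either shNC-labelled library (−0.81 and −1.01), nor with equal library totals (−0.56). Keratin and squamous genes had 10 regions at 6 of 27 genes and 0 calls, with 1 lower call without shG8d-labelled A, and a median of −0.34. The lowest limma p among them belonged to KRT80, a type II keratin, at 70.1 and 34.0, against 93.4 and 76.7 (−0.78). AP-1 genes had 10 regions at 6 of 19 genes, all 10 below 0 with a median of −0.62, of which 2 were called lower, and 4, 3, 1 and 1 without a library. AP-1 is a dimer of Fos-family and Jun-family proteins, but the list is wider. MAF had 4 of the regions and ATF3 2, while FOSB, FOSL1, FOSL2 and JDP2 had 1 each. The MAF region of smallest p lies in intron 8 of 8 of another gene, WWOX, 612818 bp from the MAF TSS. The highest of the 10 stood at −0.12 with the authors' scaling. With equal library totals the JDP2 region moved to −0.40 from −0.75, and the MAF region in WWOX to −0.47 from −0.82. That scaling raises all regions by nearly the same amount, enough to put the highest of the 10 above 0. The count of 10 below 0 thus holds for the authors' scaling. FOSL1, a Fos-family gene, had 36.2 and 26.9, against 80.8 and 63.8 (−1.17), lost without shNC-labelled A (−1.01). The FOSL2 region lies in an intron of its antisense gene and had 53.2 and 49.2, against 80.8 and 114 (−0.89), lost without shNC-labelled B (−0.65) and with equal library totals (−0.55).

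Signalling lists mostly stood near the whole set. WNT genes had 26 regions at 15 of 35 genes, 6 called lower and 1 higher, and 8, 5, 4 and 2 lower without a library. ROR2, a WNT5A receptor, had 21.7 and 17.6 normalized counts in intron 1, against 95.9 and 87.2 (log2 difference −2.17, SE 0.30), and a second region of intron 1, at 152037 bp, had −2.02. WNT7A had 89.4 and 38.7, against 133 and 163 (−1.31), and WNT3A 67.7 and 49.2, against 106 and 127 (−0.99). The higher one was TCF7L2, the WNT effector that binds DNA with beta-catenin, with 44.7 and 56.2, against 23.6 and 25.02 (1.02), a call lost without either shNC-labelled library. Of these ligand and receptor regions, the second of ROR2 (−1.96) and WNT3A (−0.87) lost their calls without shNC-labelled B. TGF-beta genes had 32 regions at 15 of 31 genes, 3 called lower, and 5, 3, 0 and 1 without a library, with the receptor gene TGFBR1 at 77.3 and 28.1, against 111 and 105 (−1.19), followed by the signal transducer SMAD3 (−0.96) and LTBP2 (−0.84). Hippo genes had 27 regions at 12 of 26 genes, 3 called lower, and 5, 4, 0 and 0 without a library. TEAD1, a DNA-binding partner of YAP, had 7 of these regions, and the called one had 32.6 and 32.8, against 74.1 and 74.2 (−1.16). The others called were TEAD3 (−0.87) and VGLL4, a TEAD cofactor (−1.21). EGF receptor genes had 16 regions and 1 call, lower, at the ligand gene NRG2 (−1.40), and 1, 2, 1 and 0 lower calls without a library. Notch genes had 11 regions and 0 calls, though 3 lower and 1 higher without shG8d-labelled A. The calls of TGFBR1 and NRG2 were lost without shG8d-labelled B (−0.48 and −0.66). That of TGFBR1 was also lost without shNC-labelled A (−1.15), that of NRG2 without shNC-labelled B (−1.17) and that of TEAD1 without either (−1.16 and −1.15). SMAD3, LTBP2, TEAD3 and VGLL4 lost theirs without either shNC-labelled library and with equal library totals (−0.61, −0.50, −0.52 and −0.86). SMAD3, LTBP2 and VGLL4 also lost theirs without shG8d-labelled B (−0.57, −0.38 and −0.42).

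Medians above 0 were seen in the NF-kB and the mesenchymal list. NF-kB and cytokine genes had 14 regions at 8 of 31 genes with a median of 0.12 and 10 of them above 0. The 1 call was lower, at NFKBIA, the inhibitor of NF-kB, with 105 and 53.9 normalized counts, against 160 and 119 (log2 difference −0.87), and was lost without shG8d-labelled B (−0.39) and without shNC-labelled A (−0.66), and with equal library totals (−0.52). Mesenchymal genes had 12 regions at 8 of 23 genes with a median of 0.08, and SPARC, a secreted matrix protein, as the 1 called higher, at 36.2 and 58.6, against 19.4 and 19.4, in an intron of CLMAT3. Without a library the mesenchymal list had 0, 1, 0 and 0 lower and 2, 0, 0 and 0 higher calls, and the NF-kB list 1, 0, 0 and 1 lower calls. With equal library totals, both lists had 0 lower and 3 higher calls.

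Chromatin genes had 45 regions at 22 of 68 genes, 8 called lower and 0 higher, with a median of −0.19. Without a library the lower count was 12, 8, 2 and 2. TET3, a methylcytosine oxidase, had 45.9 and 21.1 normalized counts in intron 1, against 102 and 100.1 (log2 difference −1.66, SE 0.31). KDM6B, a histone H3 lysine demethylase, had 97.9 and 58.6, against 154 and 154 (−1.01, SE 0.23). Both had separate labels and stayed called with each library left out. CHD9, a remodeller, had 23.0 and 22.3, against 61.4 and 57.3 (−1.35), and HDAC9, a deacetylase, 12.1 and 10.5, against 33.7 and 32.3 (−1.47). Their calls were lost without shNC-labelled A (−1.30 and −1.44) and without shNC-labelled B (−1.40 and −1.50). Histone genes, which mostly lack introns, had 2 regions and 0 calls. H1FOO, the oocyte linker histone gene, had 32.6 and 24.6, against 33.7 and 29.1, with overlapping labels (−0.14, and 0.20 with equal library totals). H2AFZ, the gene of the variant H2A.Z, had 60.4 and 48.0, against 73.2 and 71.8 (−0.42, not called). Cell cycle genes had 15 regions at 6 of 30 genes and 2 lower calls, at the cyclin genes CCND1 (−1.35) and CCND3 (−1.17), and 1, 3, 0 and 0 without a library. These calls were lost without shNC-labelled A (−1.64 and −0.99) and B (−1.06 and −1.36), and that of CCND3 also without shG8d-labelled A (−0.77) and with equal library totals (−0.83).

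Genes of other lineages had such regions too. Neuronal genes had 18 at 10 of 24 genes, 3 called lower and 0 higher, with a median of −0.30, and 3, 3, 0 and 0 without a library. KCNIP4, a potassium channel partner, had 10.9 and 10.5 normalized counts, against 32.0 and 42.8 (log2 difference −1.70), lost without either shNC-labelled library (−1.90 and −1.49), as were CTNNA2, a neuronal catenin gene (−1.14), and GRIK2, a glutamate receptor gene (−1.41). The GRIK2 call was also lost without shG8d-labelled B (−0.45), and those of CTNNA2 (−0.79) and GRIK2 (−1.08) with equal library totals. Immune genes had 10 regions at 9 of 24 genes with 1 lower call, at ITGAM, an integrin of myeloid cells, with 48.3 and 30.5, against 108 and 96.8 (−1.39), which stayed with each library left out. Endothelial genes had 6 regions at ERG, TEK and VWF and 0 calls, with 1 lower call without shG8d-labelled A or B.

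Some regions lay nearest to a microRNA gene. There were 525 of them at 331 microRNA genes, 309 of which matched a RefSeq symbol, with a median log2 difference of −0.21, 54 called lower and 2 higher, at MIR4666B and MIR7157. Those with at least 6 regions each sit in the introns of long protein-coding genes. Their mature forms are printed as RefSeq gives them, with the seed (bases 2 to 8) in capitals, because these genes have the most regions, and their seeds are all different.

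hsa-miR-1289: uGGAGUCCaggaaucugcauuuu
hsa-miR-4681: aACGGGAAugcaggcuguaucu
hsa-miR-4714-5p: aACUCUGAccccuuagguugau
hsa-miR-4714-3p: cCAACCUAgguggucagaguug
hsa-miR-6079: uUGGAAGCuuggaccaacuagcug

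MIR1289-2 had 7 regions in introns of FSTL4, of which 2 were called lower. MIR4681 had 6 in introns of the receptor kinase gene GRK5, with a median of −0.84 and 1 called lower. MIR4714 had 6 in introns of IGF1R, the receptor of insulin-like growth factor 1, with a median of 0.24, and MIR6079 had 6 in introns of ST3GAL3, a sialyltransferase gene, with a median of 0.45, and neither had a call. The regions are placed by distance alone, and the microRNAs themselves were not measured.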

How the data were processed

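Chromatin accessibility was read in 4 ATAC-seq libraries. CASAVA 1.4 and the build hg19 are named in the submitters' processing notes, while the aligner, the caller of regions, the counter and the test were not given in the sources used here. A single table was deposited by the authors and holds, per the file headers, a log10 normalized value per library, a log2 fold change, an unadjusted p-value and an annotation. Taken out of the log10 scale, 100% of the deposited values were whole multiples of the smallest step of their column and set, within 0.05 reads, and the reads quoted are those multiples. The planned design allowed for counts, but the unit is log10. So limma 3.58.1 (R 4.3.3) with a trend was fitted to log2(normalized count + 1) over all 58127 regions, with Benjamini-Hochberg adjustment. A filter of 10 normalized counts in 2 libraries removed 0 regions, and the pseudocount understates the change of low ones. The fit was tested on simulated data. A floor of 3 reads is worth 2.42 to 3.62 normalized counts and covers counting error only. Nothing says that the libraries came from separate cultures, so their spread may be technical.

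Regions named are the 10 of highest mean level, the 10 called and non-overlapping ones with the largest difference in each direction, the 10 genes with the most regions (11 with ties), and per list up to 4 with the smallest p, passing over date-like symbols (25 regions) and missing ones (11 regions). Further called regions of a list, SEPTIN9 and the microRNA genes were named after their values were seen. The members and lists were chosen with earlier results of these data known. Host and nearest genes were matched by accession to a RefSeq table (GRCh38.p14), for names only. Results that need an item withheld from this work are not reported here. Chromosome Y was left out of the chromosome medians. Alternatives covered pseudocounts of 0.5 and 5, filters, scalings, a block on the letters and each library left out.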

Additional observations from a re-analysis of the deposited data

How the results depend on the processing

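The 8967 intronic regions had 932 lower and 77 higher calls and a median log2 difference of −0.20. With equal library totals, which include the regions of extreme level, the calls were 370 and 607 and the median turned to 0.15. All 370 were among the 932. With a median-ratio scaling over common regions, added after seeing the data, there were 1258 and 42 calls, and the medians were −0.31 for these regions and −0.10, turned from 0.02, for all regions. The median was −0.18 with a pseudocount of 5 and −0.25 with a filter of 30 normalized counts. With each library left out in turn, lower calls ranged from 194 to 1539, higher calls from 12 to 294, the median from −0.22 to −0.19, and calls over all regions from 4629 to 19114 (13697 with all 4). With 1 library of a label left, it is assumed to vary like the other pair. Of the 65 called regions that the naming rule picks, not all of which are described, 24 stayed called wherever they were fitted and 41 lost the call under some alternative; equal totals kept 45. Called regions named outside that rule were not followed singly, apart from TCF7L2 of the WNT list.

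A-minus-B deviations of the labels correlated at −0.0039 over 58127 regions, so no shared effect of the letter was seen over the regions as a set. Whether the letters pair the libraries cannot be decided from this, because a pairing with little effect on the counts would leave the deviations uncorrelated too. With a replicate block on the letter there were 1122 lower and 107 higher calls and 15308 calls over all regions. TMM, edgeR and DESeq2 were not run, because the deposited unit is a log10 value. Depth limits the low side: the median region stands on 27 and 28 reads in the shG8d-labelled libraries and 44 and 45 in the shNC-labelled libraries.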
